A study of Homo sapiens with 12 samples.

Results

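Described here are 7 genes for transcription factors that hold back muscle differentiation: MSC, TWIST1, TWIST2, SNAI1, SNAI2, ZEB1 and ZEB2. They were taken by name, as the musculin, TWIST, SNAIL and ZEB genes, with no threshold on measured values. All 7 are rows of the deposited table of 26485 gene symbols, and 5 of them had enough reads to enter the test, which covered 15206 genes. TWIST1 and TWIST2 did not, and their reads are given below.

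The libraries are RNA-seq of RD cells, an established human rhabdomyosarcoma line; this soft-tissue tumour has features of developing skeletal muscle. All cells carried a hairpin that doxycycline switches on and that targets NT5E, which encodes the adenosine-making surface enzyme CD73, in 1 of 2 constructs titled ish and ish2. The 4 groups were ish without doxycycline (Dox), ish with 10 ng/mL Dox, ish2 without Dox and ish2 with 10 ng/mL Dox, each kept for 96 h and sampled as 3 libraries, 12 in all. A non-targeting hairpin given Dox was not among the groups, and the drug, hairpin expression and the loss of NT5E cannot be told apart, and the sources used here do not say whether a construct was 1 clone or a pool.

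The MyoD family of basic helix-loop-helix (bHLH) factors switches on muscle genes by binding the DNA motif called the E-box together with E proteins, and MEF2 factors strengthen that program. Musculin and the TWIST proteins are bHLH factors that bind E proteins or E-boxes themselves and so compete with MyoD. The SNAIL and ZEB proteins are zinc-finger repressors that occupy a subset of E-boxes and bring in corepressors. Outside muscle, TWIST, SNAIL and ZEB factors are best known for shutting down epithelial genes.

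The E-box is spelled CANNTG, and the form usually ascribed to SNAIL and ZEB proteins is CACCTG, or CAGGTG read on the other strand. MYOG is the MyoD family gene whose response to Dox differed most between the constructs. The windows below show the E-box, of any form, in its promoter and in that of ZEB2, and for ZEB1 just the boxes spelled CAGGTG. They come from RefSeq on GRCh38.p14, read 5′ to 3′ along the gene's strand, with the E-box in capitals. The RefSeq table held a promoter for 3 of the 7 genes: TWIST2 and ZEB2 with 1 start each and ZEB1 with 7.
MYOG (chr1:203086008-203086037, minus strand): aatggcacccagCAGTTGgcgtgaggggct
ZEB2 (chr2:144520282-144520311, minus strand): cgatcacgttttCACATGatgctcacgctc
ZEB1 start 1 (chr10:31318348-31318377, plus strand): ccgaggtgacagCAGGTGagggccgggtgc
ZEB1 start 3 (chr10:31319119-31319148, plus strand): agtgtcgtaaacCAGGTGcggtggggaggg
The E-box of MYOG began 13 bases before its start, that of ZEB2 180 bases before, and the ZEB1 boxes shown 57 and 85 bases before starts 1 and 3. Neither MYOG nor ZEB2 held CACCTG or CAGGTG in the 250 bases before its start. The ZEB1 boxes shown were picked for that spelling, so they make no contrast with MYOG and ZEB2. ZEB1 held 7 E-boxes in all, among them a CACCTG 242 bases before start 3, with none at 3 of its 7 starts, and the TWIST2 window held none. Over all 35116 promoter entries, 61.8% held CANNTG in the 250 bases before the start, with a mean of 1.05 per entry. CACCTG or CAGGTG was held by 17.5%, on either strand. Matches of these letters describe the sequence only, since binding was not measured here.

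With Dox the 5 tested genes split into 3 patterns. ZEB2 and MSC rose in ish and fell in ish2. ZEB1 and SNAI2 fell in ish and rose in ish2. SNAI1 rose in both, and more in ish. In ish, 3 of the 5 were called higher, against 39.1% of all tested genes, and 2 lower, against 39.5%. In ish2, 3 were called higher, against 33.9%, and 2 lower, against 31.1%. With so many genes called, a call alone sets none of these genes apart, and the sizes and directions below carry the description. How many of all tested genes were called in opposite directions in the constructs was not counted. A call is an adjusted p under 0.05 in edgeR's quasi-likelihood test, with p-values adjusted over all tested genes.

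**Figure D1:**
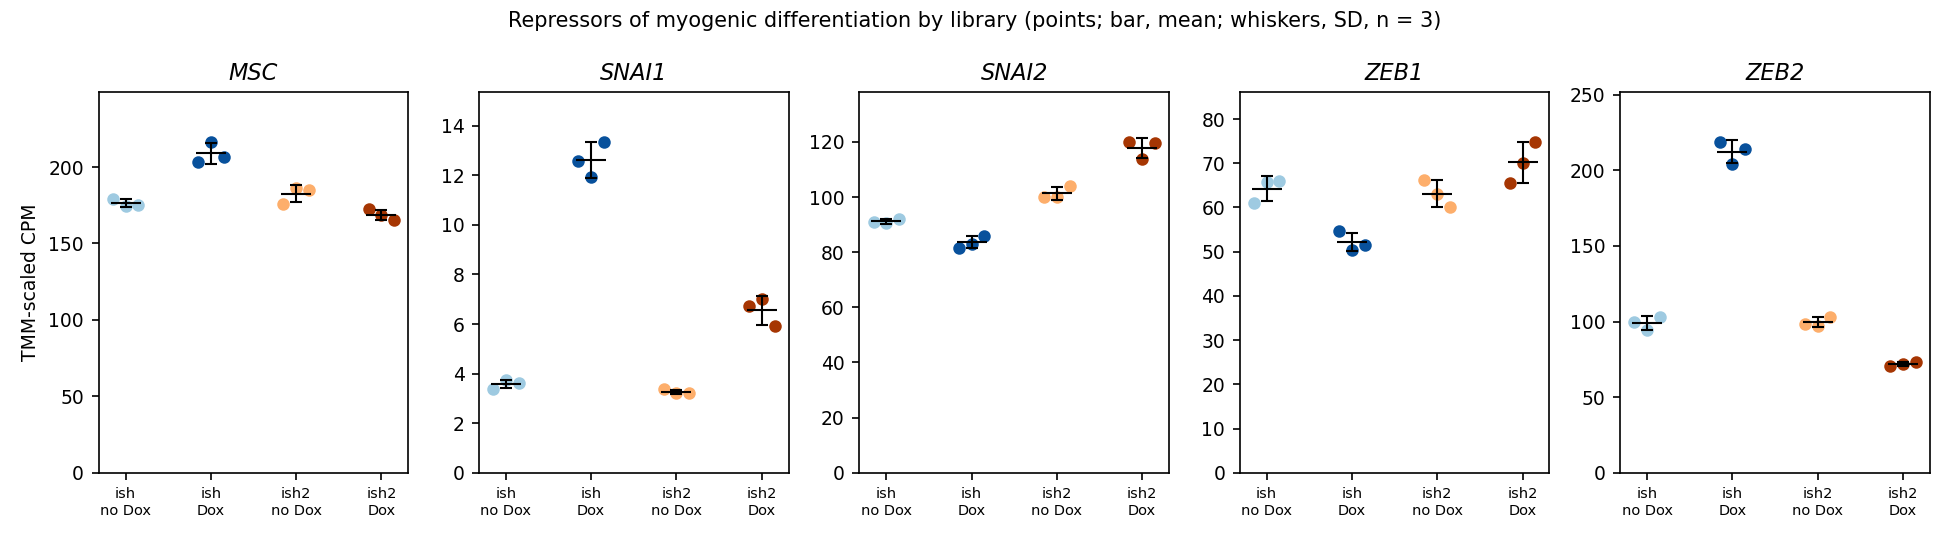
Normalised read counts (CPM, scaled to library size) of MSC, SNAI1, SNAI2, ZEB1 and ZEB2 in each of the 12 libraries, 1 panel per gene, with points for libraries, a bar for the group mean and whiskers for the SD (n = 3). ZEB2 with Dox lies near 212 CPM in ish and near 72 CPM in ish2, on opposite sides of the libraries without Dox, whereas SNAI1 with Dox lies above them in both constructs.

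SNAI1 encodes Snail, the founding member of the SNAIL repressors, and lies on chromosome 20 (GRCh38, 49982999 to 49988886, plus strand, 3 exons). Without Dox the 3 ish libraries held 3.39, 3.73 and 3.63 CPM, and with Dox they held 12.6, 11.9 and 13.4 CPM. In ish2 the values were 3.36, 3.23 and 3.22 CPM without Dox and 6.72, 7.01 and 5.91 CPM with it. Every Dox library lay above every library without Dox, and the ish libraries with Dox also lay above those of ish2. In ish, SNAI1 rose 3.52-fold (log2 fold change 1.81, SE 0.09, edgeR adjusted p = 1.76e-20), the 435th highest log2 fold change of the 15206 tested genes. In ish2 it rose 1.99-fold (log2 fold change 1.00, SE 0.10, adjusted p = 1.64e-10), the 623rd highest. The rise in ish2 was smaller than that in ish by 0.82 on the log2 scale (SE 0.14, adjusted p = 3.24e-06). SNAI1 had the fewest reads of the 5 genes, from 86 to 117 per library without Dox and from 185 to 434 with it.

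SNAI2 encodes Slug, the second SNAIL repressor, and lies on chromosome 8 (48917604 to 48921740, minus strand, 3 exons). The ish libraries held 91.0, 90.4 and 92.0 CPM without Dox and 81.7, 83.0 and 86.0 CPM with it. The ish2 libraries held 100.1, 100.1 and 104 CPM without Dox and 120.1, 114 and 119.8 CPM with it. The groups did not overlap in either construct, with Dox the lower in ish and the higher in ish2. The changes were small: SNAI2 fell 1.09-fold in ish (log2 fold change -0.12, SE 0.03, edgeR adjusted p = 0.000463) and rose 1.16-fold in ish2 (log2 fold change 0.22, SE 0.03, adjusted p = 9.49e-08). The effect in ish2 was higher than that in ish by 0.34 on the log2 scale (SE 0.04, adjusted p = 9.07e-09).

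The ratio of reads between the SNAIL genes was lower with Dox in each construct. Reads of SNAI2 per read of SNAI1 were 25.5 ± 1.32 in ish without Dox (mean ± SD, n = 3) and 6.63 ± 0.285 with Dox. In ish2 they were 31.0 ± 1.29 without Dox and 18.1 ± 2.03 with it. SNAI2 kept more reads than SNAI1 in all 12 libraries. In each construct the 3 ratios with Dox lay below the 3 without, with p = 0.1 by exact permutation, two-sided, which cannot go lower with 3 libraries a group.

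ZEB2 encodes a zinc-finger and homeodomain repressor and lies on chromosome 2 (144364364 to 144524583, minus strand, 10 exons). The ish libraries held 99.8, 94.4 and 103 CPM without Dox and 219, 204 and 214 CPM with it. The ish2 libraries held 98.2, 97.2 and 103 CPM without Dox and 70.4, 72.0 and 72.9 CPM with it. Levels without Dox were alike in both constructs, and with Dox the groups lay apart on opposite sides. ZEB2 rose 2.14-fold in ish (log2 fold change 1.10, SE 0.03, edgeR adjusted p = 1.12e-26) and fell 1.39-fold in ish2 (log2 fold change -0.47, SE 0.04, adjusted p = 4.63e-14). The effect in ish2 lay below that in ish by 1.57 on the log2 scale (log2 difference -1.57, SE 0.05, adjusted p = 8.18e-26), the widest gap among the 5 genes.

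ZEB1 encodes the other ZEB repressor and lies on chromosome 10 (31318495 to 31529814, plus strand, 9 exons). The ish libraries held 61.0, 65.8 and 66.0 CPM without Dox and 54.6, 50.4 and 51.5 CPM with it. The ish2 libraries held 66.2, 62.9 and 60.1 CPM without Dox and 65.5, 70.1 and 74.9 CPM with it. In ish the groups did not overlap. In ish2 they did, since 1 library with Dox, at 65.5 CPM, lay below the highest without. ZEB1 fell 1.23-fold in ish (log2 fold change -0.30, SE 0.05, edgeR adjusted p = 1.1e-06) and rose 1.11-fold in ish2 (log2 fold change 0.15, SE 0.04, adjusted p = 0.00382). The rise in ish2 rested on ish2 Dox replicate 3: without it the log2 fold change was 0.09 and the adjusted p 0.0964. The difference between the constructs was 0.46 (SE 0.06, adjusted p = 4.09e-07).

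The fitted changes of the ZEB genes thus had opposite signs within each construct. In ish2 that rests on the small ZEB1 rise, whose groups overlapped and whose call was lost without ish2 Dox replicate 3. Reads of ZEB2 per read of ZEB1 were 1.54 ± 0.101 in ish without Dox (mean ± SD, n = 3) and 4.07 ± 0.0702 with Dox, 2.64-fold higher by the mean of log2 ratios. In ish2 the ratio was 1.58 ± 0.122 without Dox and 1.02 ± 0.0499 with it. The ratios of the groups with and without Dox did not overlap in either construct (p = 0.1 by exact permutation, two-sided). Of the 8 ratio comparisons computed, these and the SNAIL ratios among them, each gave that p, also after Benjamini-Hochberg adjustment.

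**Figure D2:**
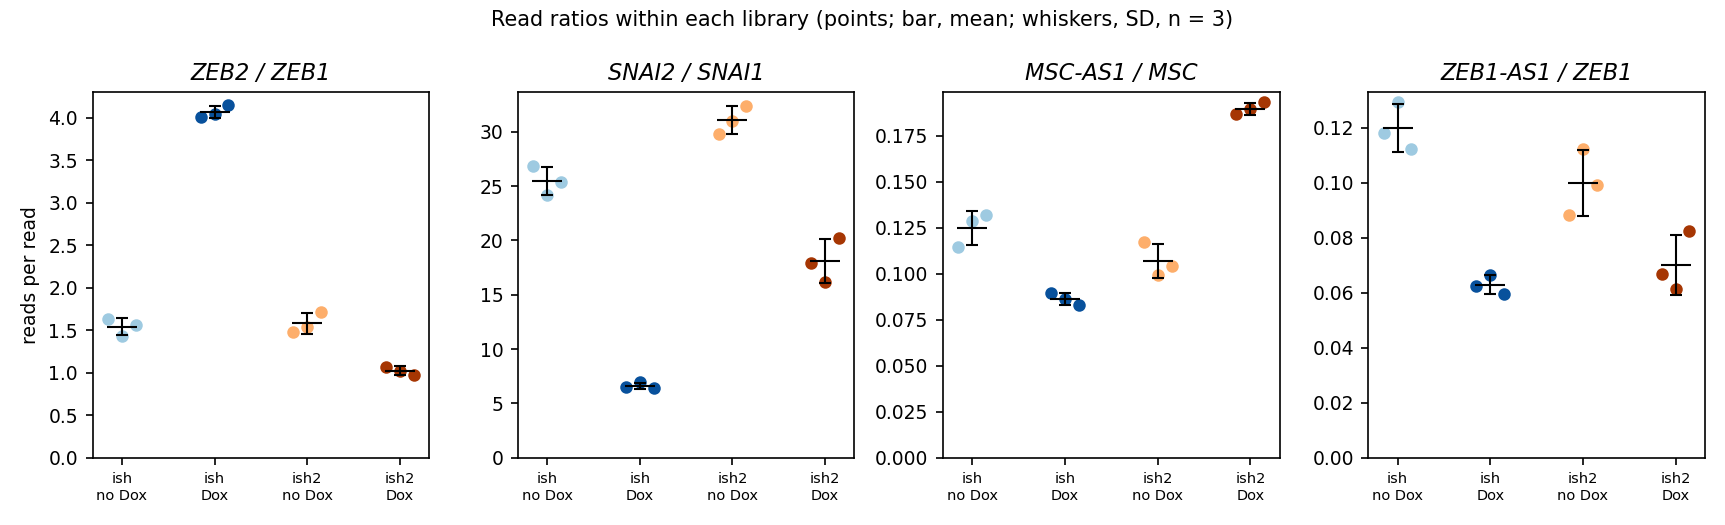
Reads of ZEB2 per read of ZEB1, of SNAI2 per read of SNAI1, and of the antisense genes MSC-AS1 and ZEB1-AS1 per read of MSC and ZEB1 in each library, with points for libraries, a bar for the mean and whiskers for the SD (n = 3). The ZEB ratio with Dox is near 4.07 in ish and near 1.02 in ish2, and the SNAIL ratio is lower with Dox in both constructs.

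MSC encodes musculin, also called MyoR, a bHLH repressor of muscle precursors, and lies on chromosome 8 (71841549 to 71844468, minus strand, 2 exons). The ish libraries held 179, 174 and 175 CPM without Dox and 203, 217 and 207 CPM with it. The ish2 libraries held 176, 186 and 185 CPM without Dox and 172, 168 and 165 CPM with it. Groups did not overlap in either construct. MSC rose 1.19-fold in ish (log2 fold change 0.25, SE 0.03, edgeR adjusted p = 9.76e-10) and fell 1.08-fold in ish2 (log2 fold change -0.11, SE 0.03, adjusted p = 0.000891), a difference of -0.36 (SE 0.04, adjusted p = 7.43e-10). The fall in ish2 was lost when the reads of its antisense gene were added, as given below.

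TWIST1 lies on chromosome 7 (19020991 to 19117672, minus strand, 2 exons) and TWIST2 on chromosome 2 (238848032 to 238910543, plus strand, 2 exons). TWIST1 had 1 read in ish Dox replicate 1 and 0 in each of the other 11 libraries, and TWIST2 had 0 reads in all 12. A count of 0 allows up to 3 reads, which was 0.0923 to 0.113 CPM depending on the library, covering counting error only. No fold or test was computed for them, and whether the counting missed them was not tested.

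All 5 tested genes had effects that differed between the constructs, against 72.6% of all tested genes. The effect was higher in ish2 for 2 of them, against 37.4%, and lower for 3, against 35.2%. In ish, all 5 had groups that did not overlap, against 80.6% of tested genes. In ish2, 4 of 5 did, all but ZEB1, against 66.6%. Past 2-fold the list was thinner: SNAI1 and ZEB2 were called and past 2-fold in ish, against 17.8% of tested genes, and none was in ish2, against 6.14%. The median log2 fold change of the 5 genes was 0.25 in ish and 0.15 in ish2, beside -0.01 and 0.01 over all tested genes.

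**Figure D3:**
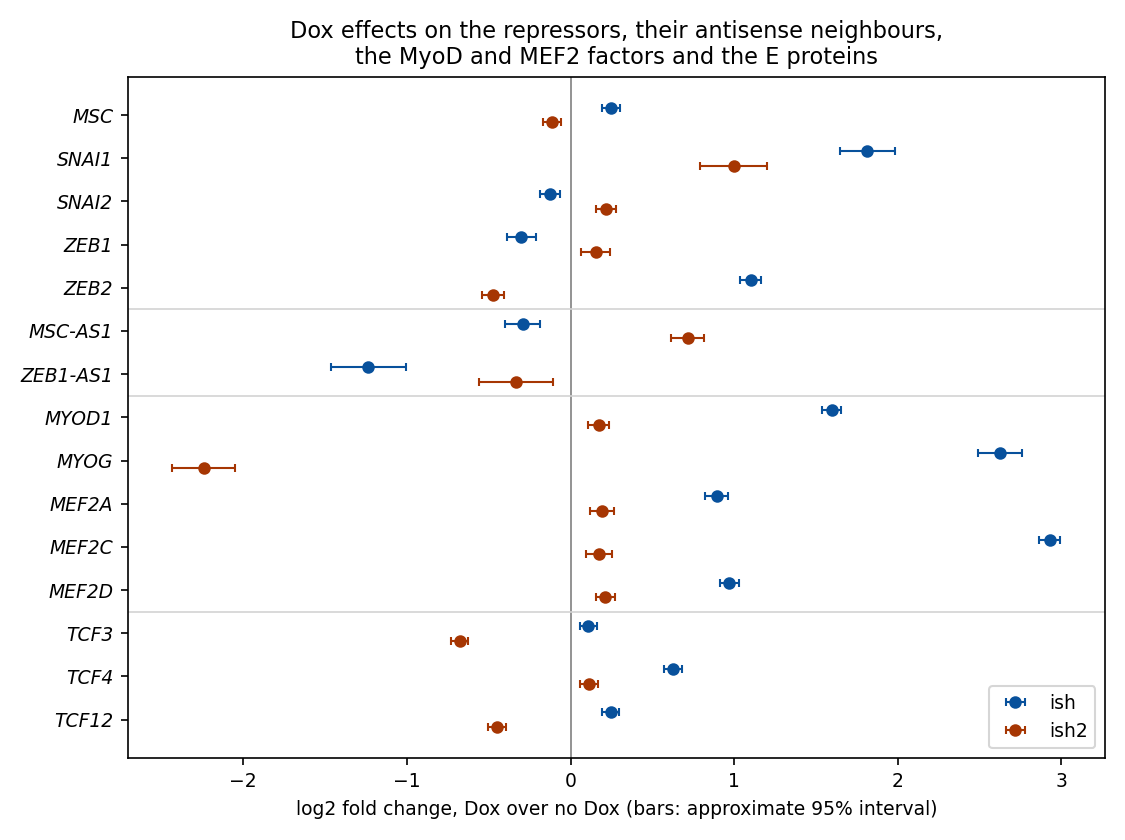
Log2 fold changes (Dox over no Dox) in ish and ish2 of the 5 tested genes, the antisense genes, and the MyoD, MEF2 and E protein genes described further on, with bars for the approximate 95% interval. ZEB2 and MSC lie above 0 in ish and below 0 in ish2, SNAI2 and ZEB1 the other way round, and SNAI1 above 0 in both.

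Without Dox the constructs were close for these genes. SNAI2 was the 1 gene of the 5 called between them, higher in ish2 (log2 difference 0.15, SE 0.03, edgeR adjusted p = 0.000257), against 13.7% of all tested genes called higher and 12.4% lower. For the other 4 the log2 difference, ish2 minus ish, was 0.05 for MSC, -0.13 for SNAI1, -0.03 for ZEB1 and 0.01 for ZEB2, with adjusted p from 0.202 to 0.887.

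Levels per kilobase of the principal transcript put the genes in an order. In ish without Dox, MSC had 87.1 CPM per kb, SNAI2 37.5, ZEB1 11.9, ZEB2 10.4 and SNAI1 2.13. In ish with Dox, ZEB2 reached 22.2 CPM per kb and passed ZEB1 at 9.62, while MSC at 103 and SNAI2 at 34.4 stayed above both and SNAI1 reached 7.48. In ish2 the order with Dox was MSC at 83.4 CPM per kb, SNAI2 at 48.5, ZEB1 at 12.9, ZEB2 at 7.52 and SNAI1 at 3.88. The ranges of ZEB1 and ZEB2 over libraries did not overlap in any of the 4 groups. The place of SNAI1 with Dox depends on the length taken: per kilobase of all annotated exonic bases, SNAI1 at 7.48 CPM per kb passed ZEB1 at 6.03 in ish, and SNAI1 at 3.88 passed ZEB2 at 2.86 in ish2. In bulk RNA, fewer cells expressing a gene and less RNA per cell cannot be told apart.

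MSC, ZEB1 and ZEB2 each share exonic bases with a gene on the opposite strand, 414 with MSC-AS1, 366 with ZEB1-AS1 and 1299 with ZEB2-AS1 in GENCODE 29. TWIST1, which was not tested, shares 141 with the antisense gene AC003986.2. The libraries were stranded, but the sources used here do not give the strand setting of the counting, so reads over those bases may be shared. MSC-AS1 moved against MSC: it fell by 0.29 on the log2 scale in ish (edgeR adjusted p = 9.05e-06), when MSC rose, and rose by 0.71 in ish2 (adjusted p = 1.56e-14), when MSC fell. Its reads were 0.125 per MSC read in ish without Dox and 0.0862 with it, and 0.107 and 0.190 in ish2. With antisense reads added, an alternative chosen after seeing the data, MSC had a log2 fold change of 0.19 in ish (adjusted p = 5.47e-08) and -0.01 in ish2 (adjusted p = 0.78). All MSC-AS1 reads were added, though just 414 of its 6284 exonic bases overlap MSC. The sum therefore cannot tell how many reads were shared.

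ZEB1-AS1 fell by 1.23 on the log2 scale in ish (edgeR adjusted p = 3.29e-11), where ZEB1 also fell. In ish2 it fell by 0.33 (adjusted p = 0.0131) and ZEB1 rose. That fall in ish2 was lost without ish2 no-Dox replicate 2 (adjusted p = 0.075), ish2 Dox replicate 1 (0.0743) or ish2 Dox replicate 2 (0.067). ZEB1 kept its direction and call in both constructs with the antisense reads added, at -0.38 in ish (adjusted p = 2.15e-07) and 0.12 in ish2 (adjusted p = 0.0358). ZEB2-AS1 had 1 to 12 reads per library and was not tested.

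Across the 12 libraries, log2 CPM of MSC and ZEB2 ran together (Pearson r = 0.95) and those of ZEB1 ran against both (r = -0.97 with MSC and -0.92 with ZEB2). SNAI2 ran with ZEB1 (r = 0.79) and against ZEB2 (r = -0.86). SNAI1 ran loosely with ZEB2 (r = 0.66) and MSC (r = 0.63). These values describe the same 12 libraries in 4 groups, so they restate the group means above, and no p is attached.

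The genes with the most similar profiles were sought among 12347 better expressed ones by Pearson r over the 12 libraries. For ZEB2 they were TMEM38A, a cation channel of the sarcoplasmic reticulum (r = 0.999), RAPGEF1, a guanine nucleotide exchange factor (0.999), and TPM2, a tropomyosin (0.998). For SNAI1 they included HABP4 (0.994) and ALG2 (0.992). For SNAI2 they were GPNMB, a membrane glycoprotein (0.990), KLF6, a zinc-finger factor (0.988), and PTPN1, a tyrosine phosphatase (0.987). For MSC they were NADSYN1, an enzyme of NAD synthesis (0.983), PC, pyruvate carboxylase (0.980), and THOP1, a peptidase (0.980), and for ZEB1 MED13L (0.970), MCF2L2 (0.969) and IFI35 (0.967). Each r is among the highest of 12347 values over 12 libraries in 4 groups, and is a description with no p.

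The factors that these repressors act against were tested beside them. Counts in this and the following lists stand beside 39.1% of all tested genes called higher and 39.5% lower in ish, and 33.9% and 31.1% in ish2. Of the 8 MyoD family and MEF2 genes, 6 were tested. All 6 rose in ish, with a median log2 fold change of 2.11, and in ish2 4 rose and 1 fell, with a median of 0.18. MYOD1, the determining factor, rose 3.02-fold in ish (edgeR adjusted p = 1.7e-32) and by 0.17 on the log2 scale in ish2 (adjusted p = 1.25e-05). MYOG, the factor of terminal differentiation, rose by 2.62 in ish (adjusted p = 1.11e-10) and fell by 2.24 in ish2 (adjusted p = 1.55e-08). MEF2C rose by 2.93 and 0.18, MEF2D by 0.97 and 0.21, and MEF2A by 0.89 and 0.19, in ish and ish2 in that order. The small ish2 rises of MYOD1, MEF2A, MEF2C and MEF2D all lost their calls when tested against a change of 1.2-fold. MYF6 had 2 to 6 reads per library without Dox in ish and 32 to 40 with it, and 0 to 3 in ish2. It passed the filter on reads through the ish Dox libraries alone. Its rise in ish, which the count of 6 and the median of 2.11 include, was thus favoured by the filter and adds no separate support. Per kilobase, MYOD1 stood at 62.2 CPM per kb in ish without Dox and 188 with it, so it passed MSC, which stood at 87.1 and 103. In ish2 MYOD1 stood at 74.2 CPM per kb without Dox and 83.5 with it, and MSC at 90.2 and 83.4, so they were level with Dox.

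E proteins are the shared partners of MyoD and of the bHLH repressors. TCF3 rose by 0.11 on the log2 scale in ish and fell by 0.68 in ish2 (edgeR adjusted p = 0.000245 and 3.64e-22). TCF12 rose by 0.25 in ish and fell by 0.45 in ish2 (adjusted p = 3.31e-10 and 2.84e-16). TCF4 rose by 0.63 and 0.11 (adjusted p = 1.5e-21 and 0.000765). The effects of all 3 differed between the constructs, by -0.79, -0.69 and -0.51 for TCF3, TCF12 and TCF4.

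Of 12 relatives in the bHLH and SNAIL families, 6 were tested. In ish 4 fell and none rose, and in ish2 3 rose and 1 fell. SCX, the bHLH factor of tendon, fell by 1.66 in ish and rose by 0.16 in ish2, and TAL1, a bHLH factor of blood, fell by 1.79 and rose by 0.90. LYL1, its relative, fell by 0.78 in ish and stood at 0.18 in ish2 without a call. SNAI3, the third SNAIL gene, stood at 0.22 in ish without a call and fell by 0.68 in ish2. The 3 rises in ish2 became 1 with DESeq2, without ish2 no-Dox replicate 1 or without ish2 Dox replicate 2. The SCX rise in ish2 was lost without ish2 no-Dox replicate 1 (log2 fold change 0.13, edgeR adjusted p = 0.052), ish2 no-Dox replicate 3 (0.09, adjusted p = 0.132) or ish2 Dox replicate 2 (0.10, adjusted p = 0.139). The TAL1 rise in ish2 was lost without ish2 Dox replicate 2 (0.66, adjusted p = 0.0843) and with DESeq2 (adjusted p = 0.0571). The LYL1 fall in ish was lost without ish no-Dox replicate 3 (edgeR adjusted p = 0.0537).

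Other inhibitors of MyoD factors, such as the ID, HEY and HES proteins, the class II histone deacetylases and MDFI, did not move as a block. Of 18 tested, 6 rose and 10 fell in ish, and 9 rose and 7 fell in ish2, with median log2 fold changes of -0.21 and 0.03. HDAC9, a deacetylase that binds MEF2, rose by 3.15 in ish and by 0.39 in ish2, the latter lost without ish2 Dox replicate 3 (edgeR adjusted p = 0.0985). HEY1, a Notch target, fell by 1.19 and 0.08, and MDFI, which holds MyoD factors in the cytoplasm, fell by 1.79 and 0.66. BHLHE40, a bHLH repressor, fell by 1.17 in ish and rose by 1.16 in ish2, whereas HEYL rose by 0.51 and fell by 1.09. NFIX, a switch factor of fetal muscle, stood at -0.01 in ish without a call and fell by 0.99 in ish2. It was counted in this list as a switch factor, not as a direct inhibitor of MyoD factors. ID1, ID2 and ID3, which bind E proteins and were picked for mention after their values were seen, rose by 0.83, 0.52 and 0.49 in ish. In ish2 ID1 and ID2 rose by 1.00 and 1.94, and ID3 stood at -0.08 without a call.

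**Figure D4:**
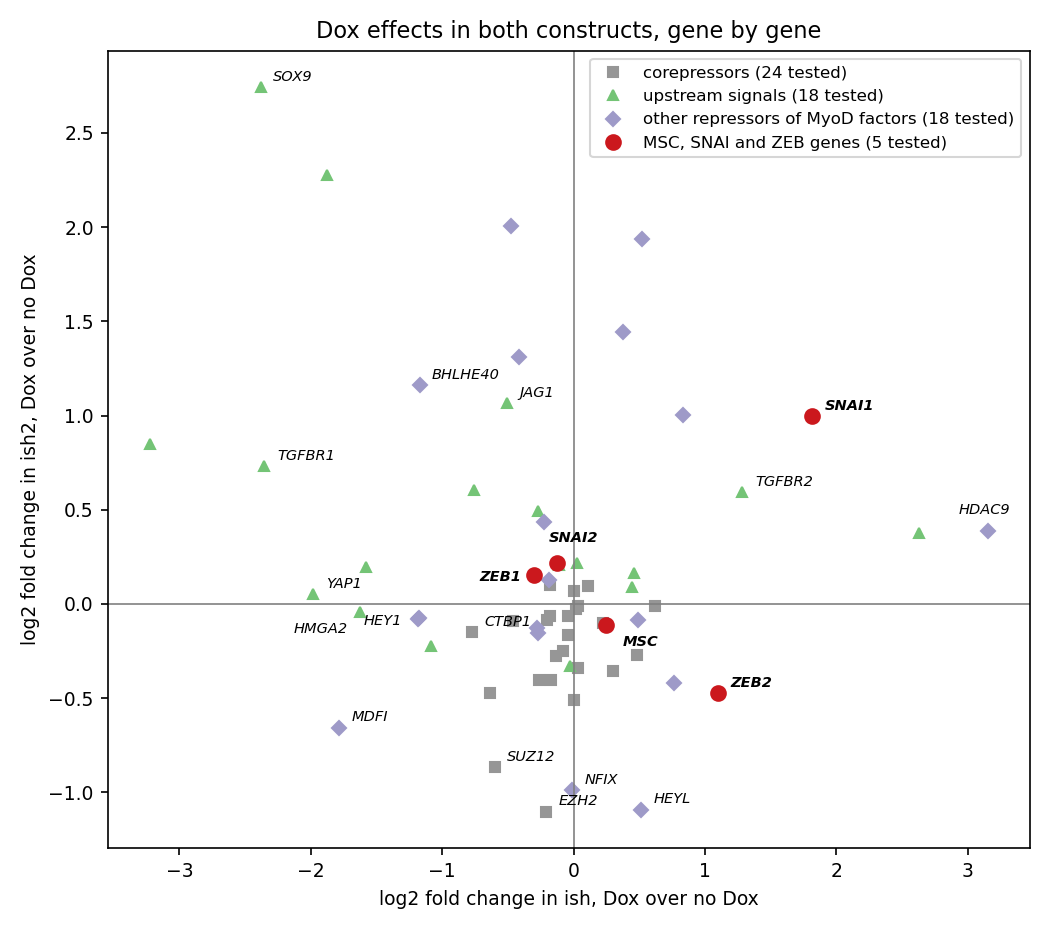
Log2 fold change with Dox in ish (x axis) and ish2 (y axis) for the 5 tested genes and for tested genes of 3 lists, namely corepressors, upstream signals and other repressors of MyoD factors, 1 point per gene. SNAI1 lies in the upper right, ZEB2 and MSC in the lower right, and ZEB1 and SNAI2 in the upper left, close to 0.

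The corepressors through which SNAIL and ZEB proteins act were tested as 24 genes. In ish 5 rose and 11 fell, the latter 45.8% beside 39.5% of all tested genes, and in ish2 3 rose and 17 fell, 70.8% beside 31.1%, with medians of -0.06 and -0.16. CTBP1, the partner of ZEB proteins, fell by 0.78 in ish and by 0.15 in ish2. SUZ12 and EZH2, of the H3K27 methyltransferase complex, fell by 0.60 and 0.21 in ish, and in ish2 by 0.87 and 1.10. EED, a further core subunit of that complex, named after its values were seen, rose by 0.48 in ish and fell by 0.27 in ish2. SIN3A, a scaffold for histone deacetylases, fell by 0.46 and 0.09, and SMARCA4, a chromatin remodeller, had no call in ish (adjusted p = 0.999) and fell by 0.51 in ish2. The 3 rises in ish2 became 1 without ish2 no-Dox replicate 2 or ish2 Dox replicate 3.

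SNAIL and ZEB proteins are also set by their turnover. Of 19 tested stability regulators, 8 rose and 4 fell in ish, and 7 rose and 3 fell in ish2, with medians of 0.09 and 0.05. LOXL3, a lysyl oxidase relative that binds Snail, fell by 1.88 and 0.51. BTRC, the ubiquitin ligase subunit that marks Snail for destruction, rose by 0.28 and 0.19, FBXW7, another such subunit, stood at 0.11 without a call in ish and rose by 0.68 in ish2, and SIAH2, a ubiquitin ligase, rose by 0.15 and fell by 0.78. Protein levels were not measured.

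Genes of signals that can induce SNAIL, TWIST and ZEB genes more often fell than rose in ish and more often rose than fell in ish2, with some going the other way. Of 18 tested, 4 rose and 12 fell in ish, with a median log2 fold change of -0.63, and 13 rose and 2 fell in ish2, with a median of 0.30. SOX9, a cartilage and progenitor factor, fell by 2.38 in ish and rose by 2.74 in ish2, and TGFBR1, a TGF-beta receptor, fell by 2.35 and rose by 0.73. JAG1, a Notch ligand, fell by 0.51 and rose by 1.07. YAP1, the Hippo effector, fell by 1.98 in ish and HMGA2, an architectural chromatin factor, by 1.62, and in ish2 they stood at 0.05 and -0.04 without a call. HMGA2 was called lower in ish2 in 8 of the 12 fits that left out 1 library, at up to -0.07 without ish2 no-Dox replicate 3 (edgeR adjusted p = 0.00651) or ish2 Dox replicate 3 (adjusted p = 0.0109). TGFBR2, the other TGF-beta receptor, rose in both, by 1.29 and 0.60.

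Epithelial genes, the usual targets of SNAIL and ZEB repression, were scarce: 6 of 25 had enough reads to be tested. In ish 1 rose and 4 fell, and in ish2 3 rose and 2 fell. KRT18, a simple-epithelium keratin, fell by 2.17 in ish and rose by 0.58 in ish2, KRT8, its partner, fell by 1.92 and rose by 0.98, and JUP, a junction protein, fell by 0.90 and 0.89. Of 22 mesenchymal genes 19 were tested, of which 8 rose and 9 fell in ish, and 11 rose and 4 fell in ish2. VIM, vimentin, fell by 0.96 and rose by 0.15, MMP14, a membrane protease, fell by 0.85 and rose by 0.45, and the matrix and adhesion genes TNC and CDH11 rose in both, by 0.86 and 0.87 in ish and by 1.27 each in ish2.

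Muscle markers were present in all libraries of this rhabdomyosarcoma line. NT5E fell in both constructs, from 16.7 to 1.57 CPM in ish and from 23.3 to 14.6 CPM in ish2. Each library held between 26566603 and 32692207 counts in genes. The 8 muscle tumour markers were all detected, and their summed level was 2068 to 2172 CPM without Dox and 3235 to 3456 with it in ish, and 2181 to 2215 and 2116 to 2152 in ish2. CHRNA1 made the largest part of the ish2 sum, at means of 1136 CPM without Dox and 1153 with it. Gene by gene, 5 of the 8 were called higher and 2 lower in ish, with a median log2 fold change of 1.21. In ish2, 2 were called higher and 5 lower, with a median of -0.77. Of other cell types, the summed level of 6 epithelial markers was 31.9 to 33.7 CPM without Dox and 6.79 to 8.71 with it in ish, and 37.5 to 42.5 and 60.2 to 61.2 in ish2, with KRT5 and KRT14 at 3 reads or fewer throughout and most of the sum from KRT18, at means of 29.2, 6.49, 36.7 and 55.0 CPM. For 6 fibroblast markers the sums were 348 to 363 and 204 to 207 CPM in ish and 373 to 388 and 363 to 380 in ish2, with FAP at 3 reads or fewer. Nearly all of the sum came from THY1, at means of 183, 93.7, 169 and 189 CPM, and COL1A1, at 171, 110, 212 and 182 CPM. LUM and DCN were low and went the other way in ish, from 0.106 to 1.34 CPM and from 0.0104 to 0.503 CPM. Of the 4 tested, 2 were called higher and 2 lower in each construct. LUM and DCN passed the filter on reads through the ish Dox libraries alone, so their rises in ish add no separate support. In ish2, DCN ran from 0 to 0.433 CPM without Dox, with 12 reads in that group, and had 0 with Dox, so its change there rests on few reads. For 6 endothelial markers the sums were 115 to 124 and 57.5 to 59.9 CPM in ish and 118 to 131 and 131 to 141 in ish2, with CDH5 and KDR at 3 reads or fewer and nearly all of the sum from ENG, at means of 108.8, 56.1, 114 and 124 CPM. For 6 immune markers the sums ran from 2.03 to 5.27 CPM over all libraries, with PTPRC, CD3E and MS4A1 at 3 reads or fewer. The part of these shifts in the changes above was not tested.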

How the data were processed

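The authors deposited raw counts of reads per gene symbol for the 12 libraries, without normalization, per the file headers. Per the submitters' processing notes, the GRCh38 build was used with STAR 2.7.3a, Trim Galore 0.6.4, Subread 1.6.3 and featureCounts, with no roles stated. The sources used here do not give the annotation. The 5 rows of unassigned reads, 21.0% to 24.4% of each library, stayed out of totals and tests. Columns headed Sh2 matched the title ish2, so those headed Sh1 were read as ish.

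Genes were filtered with filterByExpr by group (15206 kept, 11279 left out) and scaled by TMM. One fit of 4 group means in edgeR 4.0.16 (R 4.3.3, limma 3.58.1), with glmQLFit and glmQLFTest, gave the Dox effect in each construct, its difference (ish2 minus ish), and the lines compared without Dox. The SE was back-calculated from the F statistic and is approximate. The biological coefficient of variation was 2.44%, so small changes pass. Nothing says that replicates were separate cultures, so p-values measure the spread between these samples, which may be technical. The script was tested on simulated data.

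The 7 genes and the lists were chosen with earlier results of these data known. Of 195 list entries, 193 matched a row, 1 through an older symbol. Named are all 7 genes, their antisense neighbours, the MyoD, MEF2 and E protein genes, the 3 genes with the smallest p per construct in each other list except the cell type markers, the 3 most similar profiles, NT5E, and EED and the ID genes as stated; a few genes the rule takes are not reported here. Levels per kb use GENCODE 29 lengths. Alternatives were other scaling, no filter, DESeq2 1.42.0, separate fits, a replicate block, a test against 1.2-fold, each library left out, and added antisense reads.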

Additional observations from a re-analysis of the deposited data

Results flagged for a closer look

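The response to Dox differed between the constructs for every tested gene of the musculin, SNAIL and ZEB families, by a test of the difference itself (ish2 effect minus ish effect, log2 scale, edgeR adjusted over all tested genes). The difference was -1.57 for ZEB2, -0.82 for SNAI1 and -0.36 for MSC, all lower in ish2, and 0.46 for ZEB1 and 0.34 for SNAI2, both higher in ish2. ZEB2, MSC, ZEB1 and SNAI2 were called in opposite directions in the constructs. The share of all tested genes with such opposite calls was not computed, so these calls do not set the genes apart. Of these 4 genes, ZEB2 alone kept both calls against a change of 1.2-fold. The MSC fall in ish2 was lost with all MSC-AS1 reads added, most of whose exonic bases lie outside MSC (edgeR adjusted p = 0.78). The ZEB1 rise in ish2, whose groups overlapped, was lost without ish2 Dox replicate 3 (adjusted p = 0.0964). The same test picked out the antisense genes MSC-AS1 (1.01) and ZEB1-AS1 (0.90). It also picked out MYOG (-4.87), MEF2C (-2.75), MYOD1 (-1.42), MEF2D (-0.76) and MEF2A (-0.70), and the E protein genes TCF3 (-0.79), TCF12 (-0.69) and TCF4 (-0.51). Such a difference was called for 72.6% of all tested genes. NT5E fell more in ish than in ish2, and the part of that in these differences was not tested.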

How the results depend on the processing

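Of 395 alternative values for the 5 tested genes, 9 lost a call, 7 of them when tested against a change of 1.2-fold, and 4 changed sign. Against 1.2-fold the counts became 2 higher and 0 lower in ish, where MSC lost its call (adjusted p = 0.663), 1 higher and 1 lower in ish2, and 0 higher without Dox, and calls over all genes fell from 11945 to 7905 in ish, from 9883 to 4419 in ish2 and from 3974 to 161 without Dox. SNAI1 and ZEB2 kept direction and call in both constructs under every alternative. With antisense reads added, the count of genes lower in ish2 became 1, MSC having been lost. For the other named genes, 29 of 1869 alternative values lost a call, 11 gained a call and 5 changed sign. Of the lost calls, 19 came from the test against 1.2-fold. In ish2 these were MYOD1, MEF2A, MEF2C, MEF2D, TCF4, SCX, HEY1, HDAC9, CTBP1, SIN3A, VIM and ZEB1-AS1. In ish they were TCF3, TCF12, EZH2, SIAH2 and MSC-AS1, and BTRC lost its call in both. Leaving out 1 library at a time gave log2 fold changes of 1.77 to 1.85 for SNAI1 and 1.06 to 1.12 for ZEB2 in ish, and 0.93 to 1.05 and -0.51 to -0.46 in ish2; ZEB1 in ish2 ran from 0.09 to 0.19.

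The sign changes were near 0 or uncalled, and their cause was not tested. Between the lines without Dox, ZEB2 was at -0.00263 with total counts, and SMARCA4 in ish was at 0.0118 with RLE factors and at 0.0118 with DESeq2. Leaving out 1 library at a time gave -0.0660 to 0.00797 for ZEB1 and -0.0267 to 0.0368 for ZEB2 between the lines, -0.0153 to 0.00779 for SMARCA4 in ish, and -0.176 to 0.469 for LYL1 in ish2.

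Replicate numbers did not pair the libraries: residuals of libraries with like numbers correlated at -0.0798 to 0.0295, and just 3 of the 12 correlated best with their own number. With a replicate block the counts remained 3 higher and 2 lower in each construct, 2 and 3 between the constructs' effects, and 1 and 0 between the lines without Dox. Other scaling moved the median of all genes by at most 0.024 on the log2 scale.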
